A study of Mus musculus with 2 samples.

Results

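The imprinted Dlk1-Dio3 miRNA cluster was examined through every array probe named for 1 of 45 hairpins of the locus, on either arm. The members were chosen by a rule on names that uses no measured value, though earlier results of these data were known. They came to 90 of the 1900 miRNA probes, 45 of them for 3p arms and 45 for 5p arms. They were measured in epididymal adipose tissue, the fat pad beside the epididymis, of male C57BL/6J mice that entered the study at 8 weeks of age and were fed for 8 weeks. The high-fat group received a diet with 60% of its calories as fat, and the normal group a diet with 5% fat. Each diet has 1 array, and the number of mice behind each array is not stated in the labels. No difference below therefore has a replicate check, and no p-value can be given. The high-fat sample was at position 2 and the normal-diet sample at position 1, so an effect of position and one of diet cannot be told apart.

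In mammals this locus is imprinted: the protein-coding genes Dlk1, Rtl1 and Dio3 are expressed from the paternal chromosome, and the long noncoding RNAs Meg3, Rian and Mirg, together with the miRNAs, from the maternal one. Dlk1 encodes a transmembrane protein known for holding back adipocyte differentiation, and Dio3 an enzyme that inactivates thyroid hormone. Several of the miRNAs that lie antisense to Rtl1 match its mRNA perfectly and direct its cleavage in mouse. The miR-379 to miR-410 group further downstream is best known from neurons, placenta and muscle.

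In RefSeq (build GRCm38.p6) the hairpins of 43 of the 45 loci spanned 180.1 kb at chr12:109563692-109743795. The plus strand carried all of them except Mir299b, which lies on the minus strand across Mir299a. Mir770 fell inside Meg3, 10 loci from Mir673 to Mir136 fell inside the annotated extent of Rtl1, Mir370 fell inside Rian, and 8 loci at the distal end fell inside Mirg. RefSeq gave a mature sequence for 86 of the 90 members; miR-376c-3p, miR-539-3p, miR-487b-3p and miR-485-5p were the others. Sequences are printed 5′ to 3′ with the seed, bases 2 to 8, in capitals. The first set shows both arms of 5 hairpins described below for which RefSeq gave both mature sequences, so Mir487b is not among them: Mir770 in Meg3, Mir431 and Mir127 antisense to Rtl1, and Mir494 and Mir134 of the miR-379 to miR-410 group.
miR-770-3p: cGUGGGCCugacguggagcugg
miR-770-5p: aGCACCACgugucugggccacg
miR-431-3p: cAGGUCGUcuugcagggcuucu
miR-431-5p: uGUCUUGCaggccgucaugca
miR-127-3p: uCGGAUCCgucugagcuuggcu
miR-127-5p: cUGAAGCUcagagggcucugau
miR-494-3p: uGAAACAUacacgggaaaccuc
miR-494-5p: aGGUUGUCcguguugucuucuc
miR-134-3p: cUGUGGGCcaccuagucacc
miR-134-5p: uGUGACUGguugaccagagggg

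The second set shows members whose sequences are so alike that their probes may share target. Of all pairs of members with a sequence, 12 lay within 5 single-base edits of each other, and miR-376b-5p and miR-376c-5p, neither detected on both arrays, lay 1 edit apart. miR-299b-5p equals miR-299a-5p without its first base, and miR-299b-3p is contained in miR-299a-3p. miR-379-3p and miR-411-3p share a seed and lie 2 edits apart. miR-300-3p and miR-381-3p lie 3 edits apart, as do miR-376a-3p and miR-376b-3p, and the seed differs within each of these pairs. The miR-376 miRNAs are known for adenosine-to-inosine editing within the seed, and no probe here was named for an edited form.
miR-299a-5p: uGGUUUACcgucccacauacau
miR-299b-5p: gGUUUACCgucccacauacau
miR-299a-3p: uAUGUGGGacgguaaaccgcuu
miR-299b-3p: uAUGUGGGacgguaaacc
miR-379-3p: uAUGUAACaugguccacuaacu
miR-411-3p: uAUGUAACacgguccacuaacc
miR-300-3p: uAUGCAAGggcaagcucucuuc
miR-381-3p: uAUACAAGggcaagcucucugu
miR-376a-3p: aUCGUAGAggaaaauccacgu
miR-376b-3p: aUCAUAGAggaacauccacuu

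Most of the cluster was measurable but dim on both arrays. A probe counted as detected when its spot exceeded the blank mean of its array by over 2 SD of the blanks, which is 1.59 intensity units above a blank mean of 69.2 on the high-fat array and 1.87 units above a blank mean of 75.6 on the normal-diet array. By that limit 68 of the 90 members were detected on the high-fat array, against 63 on the normal-diet array. Over all 1900 probes the shares were 79.5% and 72.1%. Both arrays detected 61 members, beside 70.5% of all probes. The high-fat array alone detected 7 and the normal-diet array alone 2, beside 9% and 1.63% of all probes. Neither array detected the other 20, beside 18.9% of all probes.

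The net signal, the spot median minus the blank mean of its array, had a median over the 61 members of 9.04 units on the high-fat array and 8.59 units on the normal-diet array. Over all 1339 miRNAs detected on both arrays these medians were 17.9 and 13.7 units. A net signal above 100 units was reached on both arrays by 3 members, miR-494-3p, miR-487b-3p and miR-770-3p, which together held 56.5% of the cluster's summed net signal on the high-fat array and 60.7% on the normal-diet array. The whole cluster gave 0.688% of the net signal of all miRNA probes on the high-fat array and 0.71% on the normal-diet array. In the cluster's sums, probes below the blank mean added nothing. Probe brightness also depends on probe sequence, so the level of 1 miRNA was not set against that of another.

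**Figure D1:**
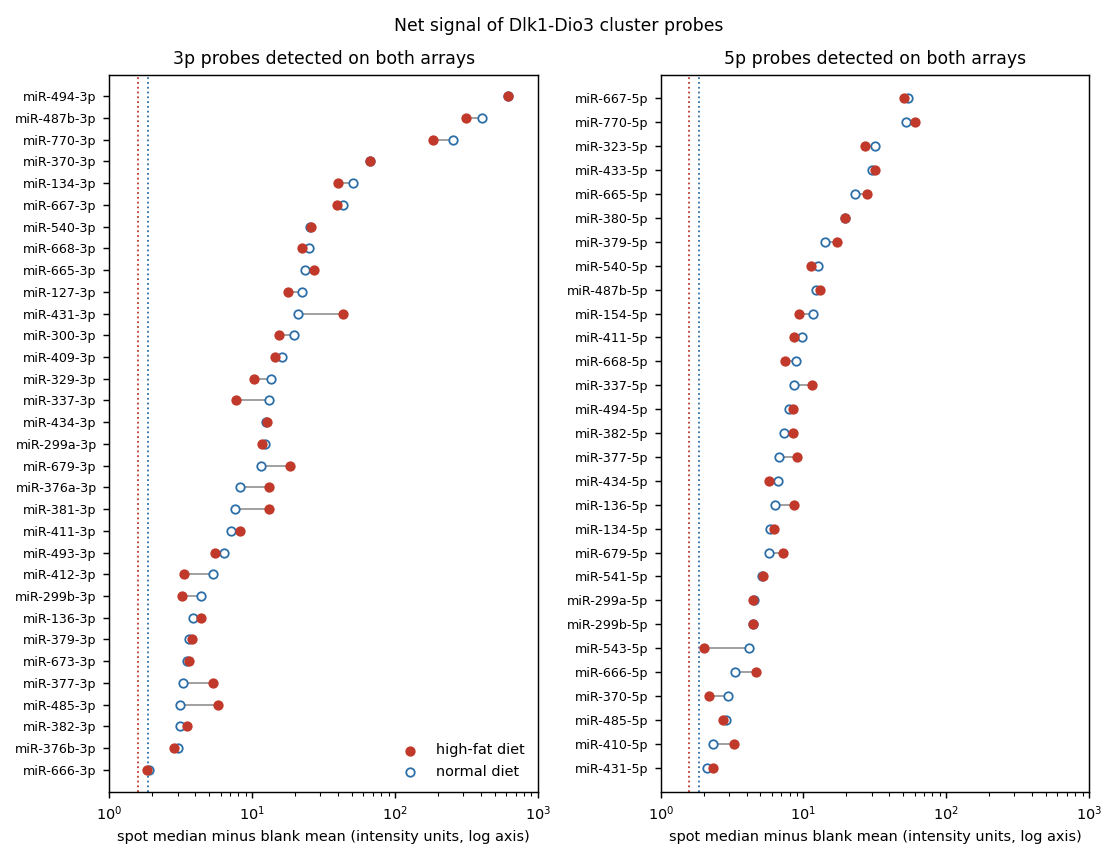
Net signal (spot median minus blank mean, intensity units, log axis) of the 61 cluster probes detected on both arrays, with 3p probes on the left and 5p probes on the right; filled red points are the high-fat array, open blue points the normal-diet array, and dotted lines the detection limits of 1.59 and 1.87 units. Most pairs of points lie close together, with miR-431-3p clearly to the right on the high-fat array at 43 against 21 units.

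GC content moved with detection. The mature sequences of members detected on both arrays had a median GC content of 52.4% (36.4% to 72.7%, 59 sequences), against 42.1% (23.8% to 54.5%, 19 sequences) for members detected on neither array. Of the 6 members with a net signal above 50 units on both arrays, the 5 with a sequence had a median of 68.2%. The part of GC content in these signals was not tested.

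For the diet comparison, spot medians were corrected with limma's normexp method against the blank mean with an offset of 50, quantile-scaled over all miRNA probes and converted to log2; each difference is high-fat minus normal diet. The offset pulls the differences of dim probes toward 0, and the net signals are therefore given beside them. With it even probes at the blanks keep a normalised intensity above 50, so a dim probe could not read 2-fold lower. The cluster was dimmer than all miRNAs, so the 2-fold shares below are not compared on equal terms. No member differed by 2-fold or more: 0 of 61 were that much higher, beside 1.27% of all 1339 miRNAs, and 0 of 61 that much lower, beside 0.747%. The differences of the members ran from -0.51 to 0.22, with a median of -0.06 against -0.04 over all miRNAs. Of the 61 members, 55 had a difference below 0 and 6 above 0, where the shares over all miRNAs were 64.4% and 35.2%. That split moved with the scaling: 1 member lay above 0 with the 75th percentile, 12 with cyclic loess, 19 with no scaling and 60 with the spike controls. The whole array moved too: of all 1339 miRNAs 322, 619, 826 and 1262 lay above 0, in the same order. In net signal, before any scaling, 32 of the 61 were higher on the high-fat array (52.5%), against 70.6% of all miRNAs.

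Repeated control spots give the only error available, that of spots within these arrays. Their single-spot log2 differences, before scaling, had SDs from 0.10 to 0.18 around their own means, over 6 controls of 8 or 16 spots each. Those means were all below 0, from -0.46 to -0.12, whereas the SD is set around 0 here for quantile-scaled values. All controls but 1 had mean net signals of 97.3 units or more on each array, above most members. The largest SD serves as a yardstick only: single spots also fall beyond 1 SD of their own mean, so it does not mark a real difference. Of the 61 members, 50 lay within the largest of these SDs, 10 lay further below 0 (13.9% of all miRNAs did) and 1 further above (10.8% of all miRNAs). The member above was miR-431-3p; the 10 below were miR-770-3p, miR-487b-3p, miR-134-3p, miR-667-3p, miR-323-5p, miR-127-3p, miR-337-3p, miR-300-3p, miR-667-5p and miR-668-3p.

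**Figure D2:**
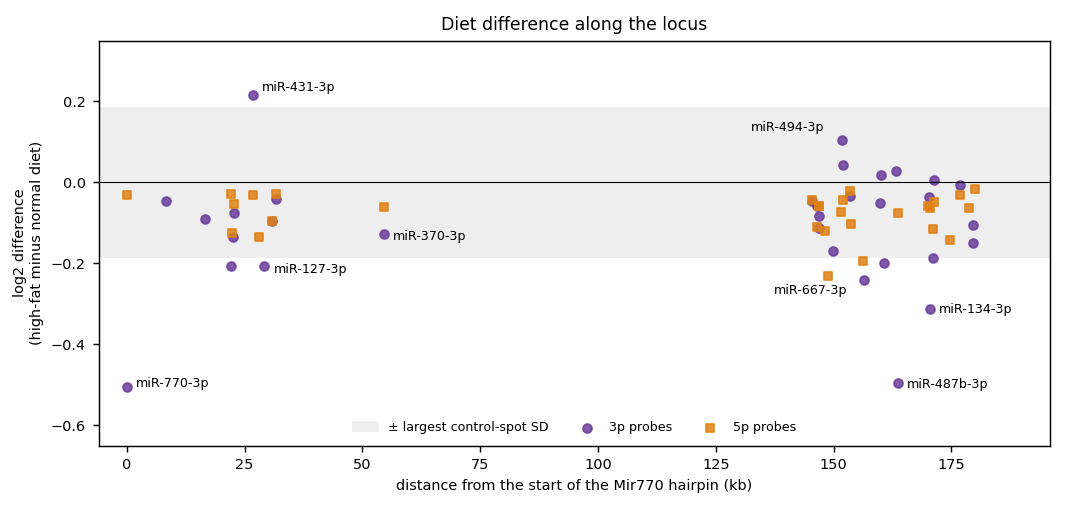
Log2 difference of each cluster probe detected on both arrays (vertical axis) against its distance from the start of the Mir770 hairpin in kb (horizontal axis). Circles are 3p probes, squares 5p probes, and the grey band is the largest SD of repeated control spots (0.18). That SD was taken before scaling around the mean of the control itself, and the band is drawn around 0. miR-770-3p (-0.51) and miR-487b-3p (-0.50) lie furthest below the band and miR-431-3p (0.22) lies above it.

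Mir770, which is hosted by Meg3, gave the lowest difference of the cluster on its 3p arm. miR-770-3p had a net signal of 184 units on the high-fat array and 252 units on the normal-diet array. Its normalised intensity was 231 on the high-fat array and 328 on the normal-diet array, a log2 difference of -0.51. Among the 61 members it was the 1 whose difference was below 0 under all 13 combinations of background, scaling and offset tried, from -0.71 to -0.05. The other arm, miR-770-5p, had 60.4 units on the high-fat array and 52.1 units on the normal-diet array, with a log2 difference of -0.03. It was below 0 under 8 of the 13 combinations. Its local background lay above the blank mean by 84.3% of its net signal on the high-fat array and 66.2% on the normal-diet array. For miR-770-3p these shares were 51.1% and 58.6%. With the local background the differences were -0.26 for miR-770-3p and -0.07 for miR-770-5p.

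The Rtl1 group comprised the 10 loci inside the annotated extent of that gene, not all of which need match its mRNA. They gave 20 probes, of which 16 were detected on both arrays, beside 70.5% of all probes. The median difference of these 16 was -0.08, with 15 of 16 below 0, beside 64.4% of all miRNAs. That count was 8 with the local background and 0 with the spike controls, beside 52.7% and 5.75% of all miRNAs. The exception was miR-431-3p, whose hairpin is known in mouse for acting on Pax7 in muscle progenitor cells through its other arm. The miR-431-3p probe had a net signal of 43 units on the high-fat array and 21 units on the normal-diet array. Its normalised intensity was 91.6 on the high-fat array and 78.8 on the normal-diet array (log2 difference 0.22), and the log2 ratio in the authors' deposited values was 0.78. It was the 1 member higher on the high-fat array under all 13 combinations, from 0.16 to 0.78.

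miR-127-3p, which cuts the Rtl1 mRNA in mouse, went the other way. It had 17.9 units on the high-fat array and 22.3 units on the normal-diet array, a log2 difference of -0.21. It was below 0 under 12 of the 13 combinations, the exception being scaling to the spike controls. miR-337-3p had 7.68 units on the high-fat array and 13 units on the normal-diet array, with a difference of -0.21, and of -1.02 in the authors' deposited values. The rest of this group lay closer together. miR-433-5p had 31.5 units on the high-fat array and 30.3 units on the normal-diet array (-0.14). miR-434-3p, a further Rtl1-cutting miRNA, had 12.7 units on the high-fat array and 12.6 units on the normal-diet array (-0.10). miR-136-5p, also complementary to Rtl1, was dim, with 8.64 units on the high-fat array and 6.36 units on the normal-diet array (-0.03). Each of these 3 differences is smaller in size than the largest control-spot SD.

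miR-370-3p, encoded inside Rian and reported in human hepatoma cells to lower the carnitine palmitoyltransferase gene CPT1A, had the same net signal to within rounding, 66.9 units on the high-fat array and 66.9 units on the normal-diet array. Quantile scaling turned this into a log2 difference of -0.13, smaller in size than the largest control-spot SD. Its other arm, miR-370-5p, lay near the limit at 2.19 units on the high-fat array and 2.98 units on the normal-diet array.

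The miR-379 to miR-410 group comprised 66 probes, of which 41 passed the limit on both arrays, beside 70.5% of all probes. Their median difference was -0.06, with 36 of 41 below 0, beside 64.4% of all miRNAs. That count was 22 with the local background and 0 with the spike controls, beside 52.7% and 5.75% of all miRNAs. miR-494-3p had 622 units on the high-fat array and 618 units on the normal-diet array, a log2 difference of 0.10. The direction of miR-494-3p turned with the processing, from -0.30 with scaling to the 75th percentile before the offset to 0.93 with the local background of each spot. miR-487b-3p had 316 units on the high-fat array and 407 units on the normal-diet array (-0.50). For miR-487b-3p the local background gave 0.51 and the spike controls 0.00115. The local background of these probes lay above the blank mean, by 63.7% of the net signal of miR-487b-3p on the high-fat array and 86.8% on the normal-diet array, and for miR-494-3p by 51.6% on the high-fat array and 83% on the normal-diet array. For miR-667-5p it lay above by 19.5% of the net signal on the high-fat array and 9.08% on the normal-diet array. What raised the local background was not tested.

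Further members of the miR-379 to miR-410 group with a difference beyond the largest control-spot SD were all lower on the high-fat array. miR-134-3p, from the hairpin whose 5p arm restrains Limk1 in rat dendrites, had 39.7 units on the high-fat array and 51 units on the normal-diet array (-0.31). miR-667-3p had 39.2 units on the high-fat array and 43.2 units on the normal-diet array (-0.24). miR-323-5p had 27.1 units on the high-fat array and 31.8 units on the normal-diet array (-0.23). These 3 were below 0 under 11 of the 13 combinations each, and above 0 under at least 1 scaling to the spike controls. miR-300-3p had 15.3 units on the high-fat array and 19.5 units on the normal-diet array (-0.20). Its near relative miR-381-3p, 3 edits apart, had 13 units on the high-fat array and 7.52 units on the normal-diet array (0.03). That 0.03 is smaller than the largest control-spot SD. With the spike controls miR-300-3p and miR-381-3p were both above 0, at 0.22 and 0.42. With the 75th percentile both were below 0, at -0.23 and -0.03. miR-668-3p had 22.5 units on the high-fat array and 24.9 units on the normal-diet array (-0.19).

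Besides miR-431-3p and miR-494-3p, the members with a difference above 0 were miR-679-3p (0.04), miR-381-3p (0.03), miR-376a-3p (0.02) and miR-485-3p (0.01), all smaller than the largest control-spot SD. miR-679-3p had 18.3 units on the high-fat array and 11.5 units on the normal-diet array. miR-376a-3p had 13.2 units on the high-fat array and 8.25 units on the normal-diet array. In the authors' deposited values these 4 were at 0.42, 0.54, 0.42 and 0.62 in the same order. miR-379-5p, a glucocorticoid-responsive miRNA of mouse liver that is tied to the release of triglyceride-rich lipoprotein, had 17.3 units on the high-fat array and 14.3 units on the normal-diet array (-0.04). The probes of miR-299a-5p and miR-299b-5p, whose sequences differ by 1 base at the end, read 4.44 and 4.42 units on the high-fat array and 4.48 and 4.43 units on the normal-diet array, and cannot be taken as separate measurements.

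The arms of the hairpins were compared by detection and by diet difference. Among 3p probes 32 of 45 were detected on both arrays (71.1%), beside 69.5% of all 784 probes named 3p on the array; among 5p probes 29 of 45 were (64.4%), beside 71.2% of all 780 probes named 5p. At 22 loci both arms were detected on both arrays. The 3p arm was the 1 detected on both arrays at 10 loci, among them Mir127, and the 5p arm at 7 loci, among them Mir323 and Mir433. The probe for miR-433-3p read 0.641 units on the high-fat array and -0.165 units on the normal-diet array, and that for miR-323-3p -1.67 and 0.983 units on the same arrays, so both lay within the blanks. At 6 loci no arm was detected on both arrays, and for Mir369 and Mir544 no arm was detected on either.

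The members of the cluster that were detected on 1 array lay close to the limit on it. The 7 that the high-fat array alone detected, among them miR-410-3p, miR-539-5p and miR-329-5p, had 1.78 to 4.05 units there. The 2 that the normal-diet array alone detected, miR-496a-5p and miR-495-3p, had 3.29 and 2.56 units there. Set against the lowest detected signal of the other array, the bounds on the high-fat array were at least 1.06-fold lower for miR-496a-5p, at least 1.04-fold lower for miR-495-3p and at least 1.01-fold higher for miR-329-5p and miR-539-5p; the other 5 gave no fold above 1. The direct values are therefore all that can be said of these 9.

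The diet difference was wider among 3p than among 5p probes. The 32 detected 3p probes ran from -0.51 to 0.22 with a median of -0.09 and 26 below 0, beside 71.7% of all 3p probes detected on both arrays. The 29 detected 5p probes ran from -0.23 to -0.02 with a median of -0.06 and 29 below 0, beside 59.3% of all such 5p probes. These counts depended on the setting: 16 of 32 3p and 16 of 29 5p probes lay below 0 with the local background, and 1 of 32 and 0 of 29 with the spike controls. Over all such 3p and 5p probes, 54.7% and 50.45% lay below 0 with the local background, and 4.95% and 6.85% with the spike controls. The 3p probes also held the 3 members of high net signal, and the offset narrows the differences of dim probes. Within the 22 loci the 3p difference minus the 5p difference had a median of -0.01 and ran from -0.47 at Mir770 to 0.25 at Mir431. Both arms were below 0 at 18 of these loci, 0 loci had both arms above 0, and the arms had opposite signs at 4 (Mir431, Mir494, Mir679 and Mir485). With the local background both arms were below 0 at 6 loci and above 0 at 7, and with the spike controls below 0 at 0 loci and above 0 at 21.

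**Figure D3:**
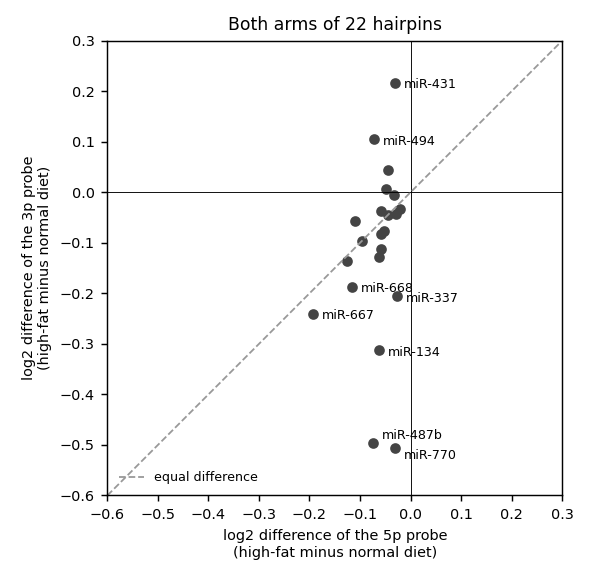
Log2 difference of the 3p probe (vertical axis) against that of the 5p probe (horizontal axis) at the 22 hairpins with both arms detected on both arrays; each point is 1 hairpin and the dashed line marks equal differences. The 5p values stay between -0.19 and -0.02 while the 3p values spread from -0.51 at miR-770 to 0.22 at miR-431.

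Some hairpins had arms close to each other. miR-667-5p had 50.9 units on the high-fat array and 53.6 units on the normal-diet array (-0.19), beside the -0.24 of miR-667-3p. At Mir665 the 3p probe was at -0.08, with 26.9 units on the high-fat array and 23.4 units on the normal-diet array, and the 5p probe at -0.05, with 27.7 and 22.9 units on those arrays. At Mir540 the 3p probe was at -0.14, with 25.7 units on the high-fat array and 25.4 units on the normal-diet array, and the 5p probe at -0.12, with 11.4 and 12.6 units. Where 1 arm was dim, as at Mir487b (5p at 13.1 and 12.2 units on the high-fat and normal-diet arrays), Mir494 (5p at 8.43 and 7.9 units) and Mir134 (5p at 6.18 and 5.84 units), its difference stayed between -0.08 and -0.06 and cannot be read against that of the bright arm.

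Further miRNAs of the same locus, outside the 45 hairpins, gave 15 probes. Both arrays detected 6 of them, whose differences had a median of -0.08, 1 above 0 and 5 below 0, and none past 2-fold. Of all probes 70.5% were detected on both arrays, and of those 35.2% lay above 0 and 64.4% below 0. miR-1188-5p had 10.7 units on the high-fat array and 4.7 units on the normal-diet array (0.06), and miR-341-3p 10.2 units on the high-fat array and 11 units on the normal-diet array (-0.11). Imprinted loci elsewhere in the genome (Mest, Gnas, Igf2 and H19) gave 10 probes, of which both arrays detected 9; their median was 0.09, with 7 above 0. Of these miR-335-5p, encoded in Mest, was past 2-fold, with 438 units on the high-fat array and 73.4 units on the normal-diet array (1.76). The difference between these loci and the Dlk1-Dio3 cluster was not tested.

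Markers of other cells differed between the arrays and are given by detection and summed net signal, with the high-fat array first in each pair. Probes with a net signal below 0 entered every sum as 0. The epididymis and testis list summed to 3646 units with 28 of 30 probes detected on the high-fat array, against 32.7 units with 7 of 30 detected on the normal-diet array. Its largest values on the high-fat array were those of miR-34b-5p, at 1198 and 1.81 units, and miR-34c-5p, at 1008 and 4.16 units. Among its other members, miR-741-3p read 118 units on the high-fat array and -4.71 units on the normal-diet array, and miR-465a-5p 48.1 and -3.38 units. The epithelial list summed to 423 and 58 units, with 9 and 8 of 10 detected. Lists with a lower sum on the high-fat array included erythrocytes at 1833 and 6347 units (5 of 5 probes detected on both arrays) and adipocytes at 2709 and 5592 units (13 and 13 of 14). Among the erythrocyte probes miR-451a read 977 and 5106 units, while miR-486a-3p went the other way at 111 and 67.5 units. Of the 5 erythrocyte differences 4 were below 0 and 1 above, and of the 13 adipocyte differences 12 were below 0 and 1 above. Leukocyte probes summed to 473 and 886 units (9 and 8 of 10), and endothelial probes to 2670 and 4318 units (2 of 2 on both arrays). Stromal and mesenchymal probes summed to 3530 and 5358 units (11 and 12 of 12), but their members went both ways, with 4 of 11 differences above 0 and 7 below 0. Of these miR-143-3p read 1206 units on the high-fat array and 2336 units on the normal-diet array, and miR-199a-5p 324 and 185 units. Brain probes summed to 290 and 301 units (6 and 5 of 7), with miR-124-3p detected on the high-fat array alone. The brightest of them, miR-128-2-5p, read 204 and 248 units, and of the 5 brain differences 2 were above 0 and 3 below. Muscle probes summed to 50.1 and 42.1 units (3 and 4 of 7), and liver probes lay at the blanks, at 1.74 and 2.01 units (0 and 1 of 2). The cluster summed to 1986 units on the high-fat array and 2105 units on the normal-diet array. In a bulk sample fewer cells of a type and less RNA per cell cannot be told apart, and the part of these other cells in the values of the cluster was not tested.

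The place of the cluster relative to all miRNAs depended on the processing. Its median minus that of all miRNAs was -0.02 as reported, between -0.03 and -0.08 under the other scalings, -0.25 in the authors' deposited values, -0.41 with plain subtraction of the blank mean and 0.000804 with the local background of each spot. Plain subtraction put 6 of the 61 members past 2-fold lower, beside 8.22% of all miRNAs, and 0 past 2-fold higher, beside 4.85%. In the authors' deposited values 2 members were past 2-fold lower, beside 4.63%, and 0 past 2-fold higher, beside 7.54%, while 47 lay below 0 and 14 above 0, beside 49.7% and 50.3%. With the local background 0 members were past 2-fold lower, beside 1.34%, and 0 past 2-fold higher, beside 1.79%, while 32 lay below 0 and 29 above 0, beside 52.7% and 46.7%. Scaling to the spike controls moved the median of all miRNAs to 0.35 and that of the cluster to 0.30. In that setting the scale factor also multiplies the offset of 50. With the same factor applied before the offset, the medians were 0.12 over all miRNAs and 0.04 over the cluster. Then 49 of 61 members lay above 0 where 60 had been, and 1143 of all 1339 miRNAs where 1262 had been.

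**Figure D4:**
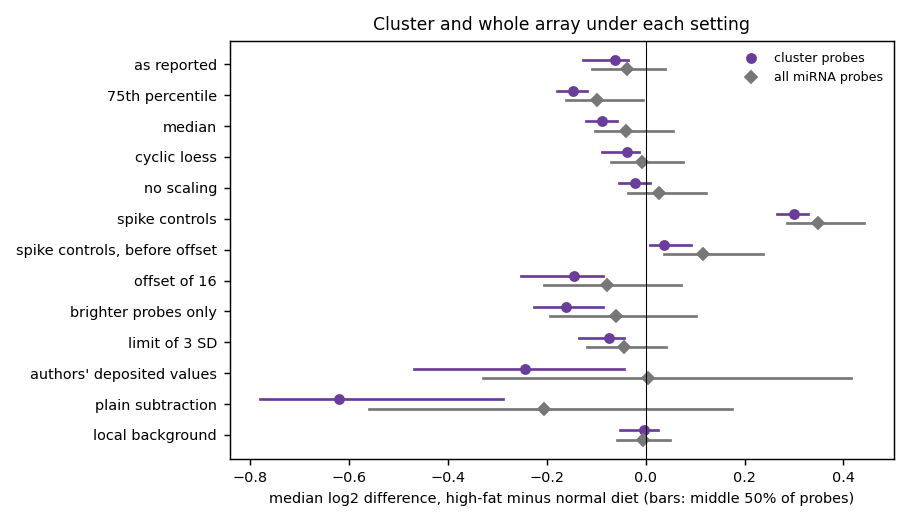
Median log2 difference, high-fat minus normal diet (horizontal axis), of the cluster probes (purple circles) and of all miRNA probes (grey diamonds) under each processing setting (rows), with bars for the middle 50% of probes. The cluster lies left of all miRNAs in every row except that of the local background, where the medians coincide near 0.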

How the data were processed

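Cy5-labelled total RNA was, per the labels, hybridised to 3D-Gene miRNA arrays. Per the file headers, the intensity of each spot and of its surroundings was read at 635 nm and merged from 3 scanner gains. The intensity values in the authors' deposited table equal the net signal times 1 factor per array (1.556 for high-fat, 1.858 for normal diet), listed where the spot passed the detection limit; both listed medians are 25. The deposited scanner intensity was corrected here with normexp in limma 3.58.1 (R 4.3.3; blank mean after trimming 5% of blanks at each end, offset 50) and quantile-scaled over 1900 miRNA probes; the log2 values are not the deposited ones. The steps were tested on simulated data built from the normal-diet array, with no shift between the arrays. That check read probes of at least 50 net units, which most members do not reach. With 1 array per diet there is no test, and the number of arrays limits the precision. Members and lists were chosen with earlier results of these data known. Printed values follow a rule: the 10 brightest members, the 6 highest and 6 lowest differences, members past 2-fold, and both arms of 8 loci; those named besides these were chosen after their values were seen, as were the control-spot yardstick and scaling before the offset. Sequences are from RefSeq, matched by name.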

Additional observations from a re-analysis of the deposited data

How the results depend on the processing

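No paired analysis was possible because each diet has 1 array and the labels give no replicate numbers. Reported values were a cluster median of -0.06, 6 members above 0 and none past 2-fold. The median was 0.30 with scaling to the spike controls and -0.62 with plain subtraction; for 3p probes these were 0.30 and -0.62 (reported -0.09) and for 5p probes 0.30 and -0.55 (reported -0.06). The number above 0 was 1 with the 75th percentile, 12 with cyclic loess, 19 with no scaling, 60 with the spike controls, 49 with the spike controls before the offset, 29 with the local background, 14 in the authors' deposited values, and 2 of 18 among probes of at least the median signal. Plain subtraction put 6 members past 2-fold lower (8.22% of all miRNAs) and the authors' deposited values 2, miR-543-5p and miR-337-3p (4.63% of all miRNAs), with none higher under any setting. miR-543-5p had 2.02 units on the high-fat array and 4.18 units on the normal-diet array. For 24 single members over 12 alternatives each, 74 of 288 values moved by more than 0.18, the largest control-spot SD, and 59 had the opposite sign to the reported value. In 5 of these both values were past that SD: miR-127-3p (0.22), miR-323-5p (0.22), miR-667-3p (0.24) and miR-667-5p (0.27) with the spike controls, and miR-487b-3p (0.51) with the local background. Net signals near the limit bound what can be read: 16 control spots at 4.31 units on the high-fat array and 9.46 units on the normal-diet array varied with an SD of 0.68 under plain subtraction. The cause of the other shifts was not tested.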
